A study of Mus musculus with 10 samples.

Results

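The 9 genes that make, assemble or recruit the BBSome were followed through CUT&Tag profiles of 2 histone H3 marks in mouse retina kept in low or high glucose. The genes were Bbs1, Bbs2, Bbs4, Bbs5, Bbs7, Bbs9 and Ttc8, which encode subunits of the complex, Arl6, which encodes the small GTPase that brings it to membranes, and Mkks, which encodes a chaperonin-like protein that helps to assemble it. The members were taken by gene symbol, promoter and other peaks alike, which gave 47 of the 108253 peaks in the deposited table. Bbs9 held 17 of them, Ttc8 12, Bbs2 6, Bbs5 and Bbs7 3 each, Arl6 and Bbs4 2 each, and Bbs1 and Mkks 1 each. All 9 genes had at least 1 peak.

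The BBSome is a protein coat that carries membrane receptors and other cargo into and out of the primary cilium, together with the intraflagellar transport trains. Loss of any of these genes in people can cause Bardet-Biedl syndrome, in which photoreceptors degenerate alongside obesity, extra digits and kidney disease. The photoreceptor outer segment is a modified cilium, so the genes are needed in rods and cones, but they are used wherever cells carry cilia. Phototransduction genes such as Gnat1, by contrast, are used in the retina almost only by rods.

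Retinas of wild-type C57BL/6J mice at postnatal day 28 were cultured for 48 h in medium with 5 mM or 25 mM glucose and then dissociated, with 500000 cells per assay. CUT&Tag directs a transposase to an antibody-bound histone, so that reads accumulate where the mark lies. H3K18La, lactylation of lysine 18, was profiled in 3 libraries per glucose level (H3K18La_5mM and H3K18La_25mM), and H3K27Ac, acetylation of lysine 27 and a mark of active promoters and enhancers, in 2 (H3K27Ac_5mM and H3K27Ac_25mM). Nothing in the labels ties a library to a separate animal or culture, so the p-values measure the spread between these libraries, which may be technical. The whole neural retina was sampled, so fewer cells of a type and less mark per cell cannot be told apart.

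Signal is given as RPKM, reads scaled to the length of the peak and the depth of the library. The library totals, recovered from the values and so possibly including a normalization factor, were 1358008 to 5182766 reads for H3K18La at 5 mM and 1965653 to 4065972 at 25 mM, and 4324289 to 7424470 for H3K27Ac. As a share of these totals, the reads in peaks moved with glucose, from 11.9% ± 0.0965 (SD, n = 3) to 32.6% ± 2.08 (SD, n = 3) for H3K18La and from 26.3% ± 7.35 (SD, n = 2) to 63.0% ± 9.19 (SD, n = 2) for H3K27Ac. Coverage of the members was thin for H3K18La, where a member peak held 0 to 21 reads in a library at 5 mM and at most 65 at 25 mM, and these totals cover counting error only. The methods name merged peaks of developing retina as well as of the explants. This peak set has as many peaks as the paper's merged H3K18La set of developing retina, which points to that source. Whether peaks of the explants also entered it is not stated. A gene without a peak is thus not shown to lack the mark here. Promoter peaks were listed for 10 of 10 rod-specific genes, 6 of 7 cone markers, 4 of 6 bipolar markers and 5 of 6 Muller glia markers, against 2 of 6 for pigment epithelium, 1 of 6 for microglia and 2 of 5 for other tissues. Of the markers of other tissues, Alb and Apoa1 had no peak at all.

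Sequences are shown where the glucose response differed most between the genes. They are RefSeq promoters of GRCm38.p6, from 250 bases before to 50 after a start site, and were chosen with the values known. Bbs7, Arl6 and Ttc8 had the largest H3K18La rises, Bbs9 the smallest among the promoters, Bbs1 had no promoter peak, and Cngb1, a channel subunit of rods, is the rod-specific promoter with the most TAATCC matches. Capitals mark, on either strand, GGGCGG (the GC box of SP and KLF factors), TAATCC (the homeobox site of CRX and OTX2) and GTTGCC (an arm of the X-box, the site of the RFX factors that regulate many cilium genes).
Bbs7, chr3:36613340-36613639, minus strand: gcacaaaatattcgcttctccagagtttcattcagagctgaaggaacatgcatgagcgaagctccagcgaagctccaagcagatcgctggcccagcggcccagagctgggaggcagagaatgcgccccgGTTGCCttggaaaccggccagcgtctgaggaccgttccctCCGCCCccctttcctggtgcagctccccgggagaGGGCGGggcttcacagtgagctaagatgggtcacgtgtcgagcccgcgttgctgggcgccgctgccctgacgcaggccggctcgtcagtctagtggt
Arl6, chr16:59639360-59639659, minus strand: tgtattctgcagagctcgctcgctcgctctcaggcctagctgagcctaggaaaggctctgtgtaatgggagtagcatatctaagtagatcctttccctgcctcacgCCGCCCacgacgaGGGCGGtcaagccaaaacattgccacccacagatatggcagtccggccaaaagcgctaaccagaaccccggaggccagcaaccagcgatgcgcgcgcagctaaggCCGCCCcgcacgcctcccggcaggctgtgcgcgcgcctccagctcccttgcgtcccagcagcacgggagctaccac
Ttc8, chr12:98920324-98920623, plus strand: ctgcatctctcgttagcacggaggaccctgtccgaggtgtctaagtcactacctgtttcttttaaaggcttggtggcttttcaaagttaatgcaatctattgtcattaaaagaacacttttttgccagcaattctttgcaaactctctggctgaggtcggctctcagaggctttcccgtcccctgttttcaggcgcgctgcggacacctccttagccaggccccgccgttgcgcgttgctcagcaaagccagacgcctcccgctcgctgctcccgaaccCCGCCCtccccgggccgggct
Bbs9, chr9:22475465-22475764, plus strand: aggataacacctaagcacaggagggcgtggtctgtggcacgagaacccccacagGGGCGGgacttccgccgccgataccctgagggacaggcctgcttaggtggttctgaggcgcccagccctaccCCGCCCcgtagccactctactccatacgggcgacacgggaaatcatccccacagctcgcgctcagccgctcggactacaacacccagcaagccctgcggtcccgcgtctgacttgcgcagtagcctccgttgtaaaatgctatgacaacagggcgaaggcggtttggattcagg
Bbs1, chr19:4906578-4906877, minus strand: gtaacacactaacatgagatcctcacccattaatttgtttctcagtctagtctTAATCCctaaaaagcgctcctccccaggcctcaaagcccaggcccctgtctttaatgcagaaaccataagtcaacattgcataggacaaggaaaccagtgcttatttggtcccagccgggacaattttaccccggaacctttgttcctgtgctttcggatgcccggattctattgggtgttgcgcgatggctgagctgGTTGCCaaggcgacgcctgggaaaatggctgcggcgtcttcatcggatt
Cngb1, chr8:95306536-95306835, minus strand: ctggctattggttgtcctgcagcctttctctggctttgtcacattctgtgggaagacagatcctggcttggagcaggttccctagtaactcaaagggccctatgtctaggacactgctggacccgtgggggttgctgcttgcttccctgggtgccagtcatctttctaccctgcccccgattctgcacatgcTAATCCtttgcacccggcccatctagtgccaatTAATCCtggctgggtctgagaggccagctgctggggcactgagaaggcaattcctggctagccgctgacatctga

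GGGCGG stood in 5 of 9 member promoters (55.6%), 12 of 18 intraflagellar transport promoters, 0 of the 6 rod-specific promoters in the table, and 35.9% of all 27025 promoters. GTTGCC stood in 3 of 9 members (Bbs1, Bbs5 and Bbs7), 8 of 18 intraflagellar transport genes, 0 of 6 rod-specific genes and 12.7% of all promoters. TAATCC stood in 1 of 9 members (Bbs1), 3 of 6 rod-specific genes and 7.16% of all promoters. It also stood in 3 of 6 bipolar and 3 of 5 pigment epithelium markers, and in 1 of 6 cone and 0 of 5 Muller glia markers. Of 12 promoters of other Bardet-Biedl genes and BBSome partners, 9 had GGGCGG, 4 GTTGCC and 2 TAATCC. These are counts of letters in a window, without a test, and do not show that a factor binds there.

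Across the 47 peaks, 13 had higher H3K18La at 25 mM than at 5 mM past an adjusted p of 0.05, 0 had lower, and 34 did not pass (limma on log2(RPKM + 0.5), Benjamini-Hochberg adjustment over all peaks). Over all 108253 peaks, 20.6% passed in the upward direction. For H3K27Ac, 13 of the 47 also passed upward and 0 downward, against 16.4% of all peaks. The fold change was positive at 45 of 47 member peaks for H3K18La and at 42 for H3K27Ac, against 82.0% and 78.1% of all peaks. These counts fell to 28 and 34 after centring on the median and to 26 and 16 after scaling to reads in peaks. The median change of all peaks fell too. For H3K18La it went from 0.76 to 0.13 after centring and -0.074 after scaling, and for H3K27Ac from 0.58 to 0.14 and -0.29. In both marks together, 10 peaks passed, against 8.16% of all peaks, while 3 passed for H3K18La without H3K27Ac, 3 the other way round, and 31 in neither. The calls depended on how the libraries were scaled, since 0 peaks of any gene passed for either mark once each library was divided by its own reads in peaks. The H3K27Ac calls also fell to 0 without the robust option of the fit or after thinning to equal depth. Leaving out any 1 of the 4 H3K27Ac libraries left a group of 1, and no peak of any gene then passed, with smallest adjusted p from 0.114 to 0.517, while the changes of the 8 member promoters in these fits stayed positive, from 0.99 to 2.70.

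**Figure D1:**
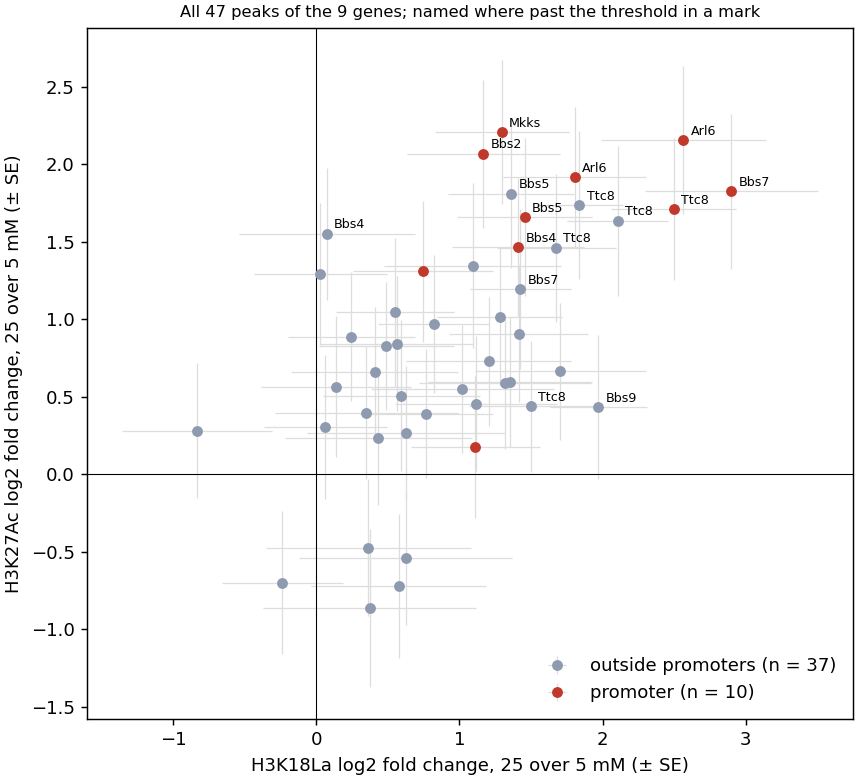
H3K18La against H3K27Ac log2 fold change (25 over 5 mM glucose, on log2(RPKM + 0.5)) for the 47 peaks of the 9 genes, with bars of 1 SE. Promoter peaks (red, n = 10) lie above 0 in both marks, and the 5 peaks under 0 for H3K27Ac lie outside promoters.

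Of the 10 member peaks annotated as promoters, 6 passed for H3K18La, against 20.4% of all such peaks, and of the 37 others 7 passed, near the 20.7% of all peaks outside promoters. For H3K27Ac, 8 of the 10 promoter peaks passed, against 40.6% of all such peaks, and 5 of the 37 others, near the 11.9% of all peaks outside promoters. A single promoter peak per gene, chosen by the highest RPKM averaged over all 10 libraries, was available for 8 of the 9 members and for 14562 genes in all. H3K18La rose at 5 of these 8 promoters (Arl6, Bbs4, Bbs5, Bbs7 and Ttc8), against 20.1% of all genes, and H3K27Ac at 7 of 8, all but Bbs9, against 42.5% of all genes. The H3K18La count fell to 2 without H3K18La_25mM replicate 1 and to 3 without H3K18La_5mM replicate 1 or 2 or H3K18La_25mM replicate 2 or 3, and it was 2 with an offset of 0.1, after centring on the median or after thinning. The 2 groups of libraries did not overlap at 6 of 8 member promoters for H3K18La, where the share over all genes was 45.0%, and at 8 of 8 for H3K27Ac, where it was 79.3%. The median log2 fold change of the 8 was 1.43 for H3K18La and 1.77 for H3K27Ac, compared with 0.88 and 1.16 over all gene promoters. After scaling to reads in peaks, the fold change stayed positive at 6 of the 8 promoters for H3K18La, turning negative at Bbs2 and Bbs9, and at 8 of 8 for H3K27Ac. The median over all 17144 peaks annotated as promoters was then -0.060 for H3K18La and 0.017 for H3K27Ac.

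**Figure D2:**
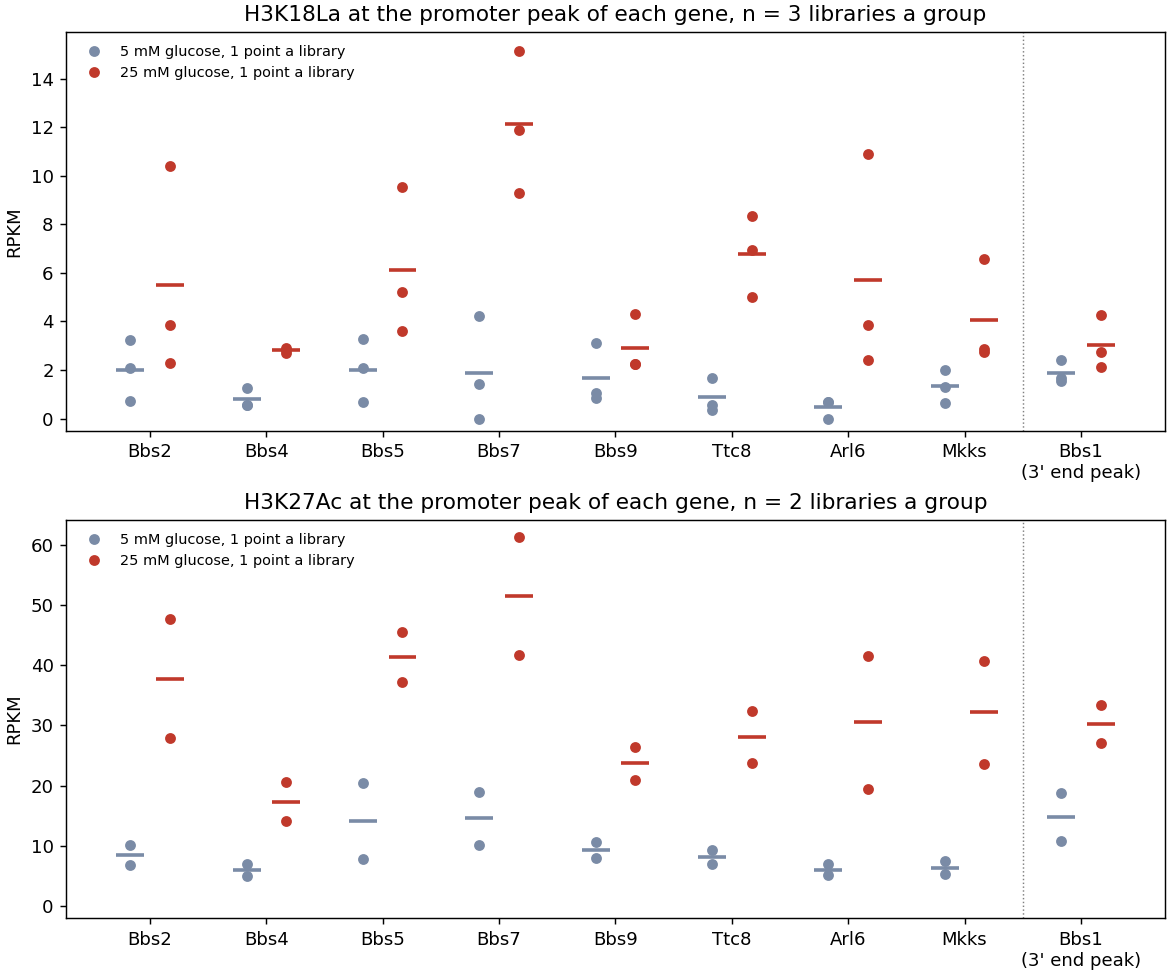
RPKM of H3K18La (top) and H3K27Ac (bottom) in each library at the promoter peak of 8 genes and at the only Bbs1 peak, which lies at the end of that gene. Each point is a library and each bar a group mean. Bbs7 reached the highest mean at 25 mM in both marks, 12.1 RPKM for H3K18La and 51.5 RPKM for H3K27Ac.

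Bbs7 encodes a propeller-bearing core subunit that pairs with Bbs2. Its promoter peak (chr3:36612479-36613820) had an H3K18La signal of 4.24, 1.44 and 0 RPKM in the libraries at 5 mM and of 15.2, 11.9 and 9.30 RPKM at 25 mM. Every library at 25 mM was above every one at 5 mM, and the log2 fold change was 2.90 ± 0.60 (SE, adjusted p = 0.0040). The H3K27Ac signal was 10.2 and 19.0 RPKM at 5 mM and 61.3 and 41.7 RPKM at 25 mM, a log2 fold change of 1.83 ± 0.50 (adjusted p = 0.0222). The H3K18La call held without each of the 6 libraries in turn, with adjusted p from 0.000792 to 0.0460. The change itself ran from 2.03 without H3K18La_5mM replicate 3, the library with 0 RPKM, to 3.65 without H3K18La_5mM replicate 1. A second Bbs7 peak in intron 4 (chr3:36608697-36609053) went from 3.24 ± 1.41 to 9.14 ± 2.11 RPKM of H3K18La (SD, n = 3), with a log2 fold change of 1.43 ± 0.36 (adjusted p = 0.0115). That call was lost without H3K18La_25mM replicate 2 (adjusted p = 0.0596) or replicate 3 (adjusted p = 0.0648), and its H3K27Ac change of 1.2 ± 0.52 did not pass (adjusted p = 0.109).

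Ttc8, also known as Bbs8, encodes a subunit built of tetratricopeptide repeats. At its promoter (chr12:98919975-98921252) H3K18La was 0.371, 1.66 and 0.576 RPKM at 5 mM and 8.36, 6.93 and 5.01 RPKM at 25 mM. The groups lay well apart, and the log2 fold change of 2.49 ± 0.44 (adjusted p = 0.00141) passed without each library in turn. H3K27Ac rose from 7.06 and 9.32 RPKM to 32.4 and 23.7 RPKM, a log2 fold change of 1.71 ± 0.46 (adjusted p = 0.0210).

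In Ttc8, besides the promoter, 3 neighbouring peaks in the first intron, about 11 to 13 kb downstream, rose in both marks, while of the 8 further peaks 1 rose for H3K18La and 0 for H3K27Ac. Over all peaks outside promoters these shares were 20.7% and 11.9%, and the difference within the gene was not tested. The H3K18La call among those 8, in intron 10 (chr12:98972517-98973810), was lost without H3K18La_25mM replicate 2 (adjusted p = 0.102) or replicate 3 (adjusted p = 0.0992). The strongest of the 3 (chr12:98932324-98933101) had 2.44, 4.46 and 3.79 RPKM of H3K18La at 5 mM and 18.3, 10.7 and 13.0 RPKM at 25 mM, more than the promoter at either glucose level. Its log2 fold changes were 1.84 ± 0.30 for H3K18La (adjusted p = 0.000949) and 1.74 ± 0.48 for H3K27Ac (adjusted p = 0.0225). The flanking peaks, described after their values were seen, changed by 2.11 ± 0.35 and 1.67 ± 0.42 for H3K18La (adjusted p = 0.00105 and 0.0113) and by 1.64 ± 0.48 and 1.46 ± 0.48 for H3K27Ac (adjusted p = 0.0281 and 0.0411). The H3K18La call of the flanking peak farther from the promoter was lost without H3K18La_5mM replicate 2 (adjusted p = 0.0703), H3K18La_25mM replicate 1 (0.0676) or replicate 3 (0.0536). No other annotated gene overlaps the strongest peak. The middle 300 bases of the peak nearest to the promoter are shown because they hold the cluster's only match, in the reverse orientation, to TAATCC.
Ttc8 intron 1, chr12:98931387-98931686, plus strand: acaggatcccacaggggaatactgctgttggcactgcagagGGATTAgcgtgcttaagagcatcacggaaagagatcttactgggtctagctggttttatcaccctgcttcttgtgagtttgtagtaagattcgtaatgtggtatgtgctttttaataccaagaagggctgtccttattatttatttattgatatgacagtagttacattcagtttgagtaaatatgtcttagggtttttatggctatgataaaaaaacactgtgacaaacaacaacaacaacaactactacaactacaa
Over the 37 member peaks outside promoters, 5 (13.5%) had TAATCC in their middle 300 bases, near the 12.3% of all 91109 such peaks.

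**Figure D3:**
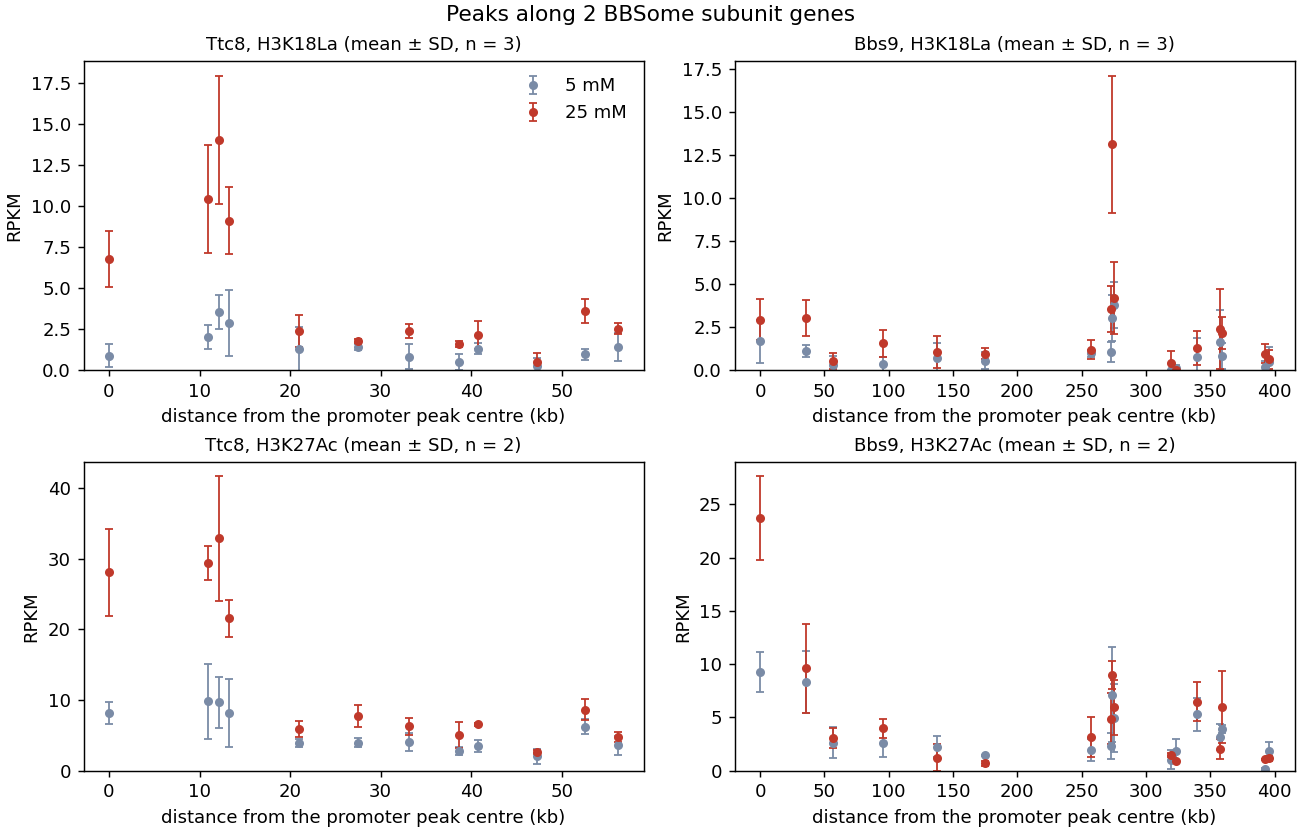
Mean RPKM ± SD of each peak of Ttc8 (left) and Bbs9 (right) against its distance from the centre of the promoter peak, for H3K18La (top, n = 3) and H3K27Ac (bottom, n = 2). In Ttc8 both marks are high at the promoter and the 3 peaks of the first intron. In Bbs9 the peak about 274 kb into the gene reaches 13.1 RPKM of H3K18La at 25 mM. Its H3K27Ac, 8.98 RPKM, is the highest of the 15 Bbs9 peaks outside promoters and below the 23.7 RPKM of the promoter.

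Bbs9, another core subunit, had its only H3K18La call far from its promoter. Its promoter (chr9:22475263-22476916) had 0.860, 1.05 and 3.12 RPKM of H3K18La at 5 mM and 4.31, 2.23 and 2.24 RPKM at 25 mM. These groups overlapped, and the log2 fold change of 0.75 ± 0.49 (adjusted p = 0.310) was the smallest of the 8 promoters. H3K27Ac there was 7.97 and 10.6 RPKM at 5 mM and 26.5 and 20.9 RPKM at 25 mM, a log2 fold change of 1.31 ± 0.46 that just missed the threshold (adjusted p = 0.0511). A second peak annotated as a promoter (chr9:22511410-22512511) changed by 1.11 ± 0.45 for H3K18La (adjusted p = 0.101) and 0.17 ± 0.46 for H3K27Ac (adjusted p = 0.838), and neither passed.

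Of the 15 Bbs9 peaks outside promoters, 1 passed for H3K18La and 0 for H3K27Ac, against 20.7% and 11.9% of all peaks outside promoters. The former lies in intron 18 (chr9:22749804-22750320), where no other gene is annotated. Its H3K18La signal was 1.83, 4.48 and 2.85 RPKM at 5 mM and 11.8, 9.99 and 17.6 RPKM at 25 mM, with no overlap, a log2 fold change of 1.97 ± 0.34 and an adjusted p of 0.00119 that stayed below 0.05 without each library in turn. H3K27Ac at the same peak was 4.03 and 10.3 RPKM at 5 mM and 8.07 and 9.90 RPKM at 25 mM, with overlapping groups and a log2 fold change of 0.43 ± 0.46 (adjusted p = 0.557). The H3K27Ac change minus the H3K18La change was -1.54 ± 0.61 on the log2 scale (limma interaction, unadjusted p = 0.0236), the only member peak with an unadjusted p under 0.05, and it did not pass after adjustment (adjusted p = 0.971). Over all peaks the interaction of glucose and mark called 0.0%, with 4988 peaks at an unadjusted p under 0.05, so a difference between the marks was not shown at any member.

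Arl6, also known as Bbs3, had the lowest H3K18La promoter mean of the 8 at 5 mM. Its peak (chr16:59638258-59639658) held 0.677, 0.689 and 0 RPKM of H3K18La, which are 2, 5 and 0 reads, and 10.9, 3.86 and 2.41 RPKM at 25 mM. The log2 fold change was 2.56 ± 0.58 (adjusted p = 0.00644), and it no longer passed without H3K18La_25mM replicate 1, the highest library (2.00, adjusted p = 0.0601). H3K27Ac went from 5.12 and 7.01 RPKM to 41.6 and 19.4 RPKM (log2 fold change 2.16 ± 0.48, adjusted p = 0.0138). The peak also holds a start of the non-coding gene 4930547E14Rik, so the signal cannot be given to Arl6 alone. A peak at an internal Arl6 start (chr16:59631691-59632966), with no other gene, rose by 1.80 ± 0.50 for H3K18La (adjusted p = 0.0204) and 1.92 ± 0.45 for H3K27Ac (adjusted p = 0.0155). Its H3K18La call held without H3K18La_5mM replicate 1 or 3 and was lost without each of the other 4 libraries, with adjusted p up to 0.106.

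Bbs5 and Bbs4 passed for H3K18La by a small margin. Bbs5, a subunit with lipid-binding domains, had promoter values (chr2:69646829-69647536) of 0.670, 3.27 and 2.08 RPKM at 5 mM and 3.59, 5.21 and 9.52 RPKM at 25 mM, a log2 fold change of 1.45 ± 0.47 (adjusted p = 0.0432). The groups were separated only narrowly, and the call was lost without any 1 of the 6 libraries (adjusted p from 0.0534 to 0.195). Its H3K27Ac rose from 7.84 and 20.5 RPKM to 45.6 and 37.3 RPKM (1.66 ± 0.51, adjusted p = 0.0326). A Bbs5 peak in the last exon of a 2-exon transcript, 2413 bp from the start, (chr2:69649584-69650435) rose by 1.36 ± 0.44 for H3K18La (adjusted p = 0.0418) and 1.81 ± 0.48 for H3K27Ac (adjusted p = 0.0200), and its H3K18La call was lost without H3K18La_5mM replicate 2 or 3 or H3K18La_25mM replicate 1 or 3, with adjusted p from 0.104 to 0.149.

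Bbs4, a repeat protein bound late in assembly, had promoter values (chr9:59352147-59353887) of 0.545, 0.554 and 1.27 RPKM of H3K18La at 5 mM and 2.92, 2.83 and 2.71 RPKM at 25 mM. The 3 libraries at 25 mM were the most alike of any member promoter, and the log2 fold change was 1.41 ± 0.46 (adjusted p = 0.0439). The call remained past the threshold only without H3K18La_5mM replicate 3, and rose to at most 0.132 without each other library. H3K27Ac increased by 1.46 ± 0.45 (adjusted p = 0.0312), from 4.91 and 6.94 RPKM to 20.5 and 14.1 RPKM. A weak peak in exon 13 (chr9:59324844-59325092) passed for H3K27Ac at 1 and 1 reads against 5 and 7 (1.55 ± 0.43, adjusted p = 0.0225) and held at most 1 read in any H3K18La library.

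Bbs2 and Mkks passed for H3K27Ac and not for H3K18La. The Bbs2 promoter (chr8:94097947-94098972) had H3K18La of 3.23, 2.07 and 0.718 RPKM at 5 mM and 10.4, 3.84 and 2.30 RPKM at 25 mM, which overlapped (1.17 ± 0.53, adjusted p = 0.143). Its H3K27Ac rose from 6.76 and 10.2 RPKM to 47.7 and 27.8 RPKM (2.07 ± 0.48, adjusted p = 0.0147). The strongest Bbs2 peak elsewhere, in exon 15 (chr8:94074313-94074788), changed by 0.03 ± 0.46 for H3K18La (adjusted p = 0.979) and by 1.29 ± 0.46 for H3K27Ac (adjusted p = 0.0544).

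At the Mkks promoter (chr2:136890624-136892092) H3K18La was 0.645, 1.31 and 2.01 RPKM at 5 mM and 6.58, 2.85 and 2.75 RPKM at 25 mM. The groups did not overlap, and the log2 fold change of 1.30 ± 0.47 missed the threshold (adjusted p = 0.0658). H3K27Ac had the largest rise of the 8 promoters, from 5.35 and 7.45 RPKM to 40.7 and 23.7 RPKM (2.21 ± 0.47, adjusted p = 0.0133). This peak also contains starts of Slx4ip and AL731706.1, so its value cannot be given to Mkks alone. The interaction of glucose and mark did not pass at the Bbs2 or the Mkks promoter (adjusted p = 0.971 for both).

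Bbs1, the subunit that Arl6 binds and the gene most often mutated in Bardet-Biedl syndrome, had no peak within 2000 bp of its start. Its only peak was 16251 bp away, in the 3' UTR (chr19:4888948-4890377). It held 1.66, 2.43 and 1.54 RPKM of H3K18La at 5 mM and 4.27, 2.75 and 2.12 RPKM at 25 mM, which overlapped (0.55 ± 0.41, adjusted p = 0.383). H3K27Ac was 10.8 and 18.8 RPKM at 5 mM and 27 and 33.3 RPKM at 25 mM, apart but not past the threshold (1.05 ± 0.48, adjusted p = 0.132). The table holds no value at the start of Bbs1, so its level there was not measured.

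The order of promoter levels at 25 mM, compared per length in RPKM, put Bbs7 first for H3K18La (12.1 ± 2.94, SD, n = 3), followed by Ttc8 (6.77 ± 1.68), Bbs5 (6.11 ± 3.07), Arl6 (5.72 ± 4.54), Bbs2 (5.52 ± 4.31), Mkks (4.06 ± 2.18), Bbs9 (2.93 ± 1.19) and Bbs4 (2.82 ± 0.106). Bbs7 did not overlap with Ttc8, and every later pair of neighbours did. For H3K27Ac the order was Bbs7 (51.5 ± 13.9, SD, n = 2), Bbs5 (41.4 ± 5.85), Bbs2 (37.8 ± 14), Mkks (32.2 ± 12), Arl6 (30.5 ± 15.7), Ttc8 (28.1 ± 6.15), Bbs9 (23.7 ± 3.92) and Bbs4 (17.3 ± 4.56). Neighbours overlapped except Bbs9 and Bbs4. At 5 mM, H3K18La means of the 8 ranged only from 0.455 RPKM (Arl6) to 2.01 RPKM (Bbs2).

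The contrast with other gene lists used the same promoter peaks. All 10 rod-specific genes rose in both marks, with a median log2 fold change of 2.34 for H3K18La, from 1.49 (Gngt1, a transducin subunit) to 2.59 (Gnat1, the rod transducin alpha subunit). Their H3K27Ac median was 2.09, with the lowest value, 1.45, at Gngt1. Bbs7, Arl6 and Ttc8 lay within or above that H3K18La range, and the other 5 BBSome promoters lay below its lowest member. Of these, Bbs5 (1.45 ± 0.47) and Bbs4 (1.41 ± 0.46) lay below it by less than their SE. For H3K27Ac, 7 of the 8 BBSome promoters, all but Bbs9, lay above the Gngt1 value, Bbs4 (1.46 ± 0.45) by less than its SE.

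The other ciliary genes were read against the same shares of all genes, 20.1% for H3K18La and 42.5% for H3K27Ac. Of 11 promoters of other Bardet-Biedl genes and BBSome partners, 1 passed for H3K18La and 7 for H3K27Ac, with medians of 0.36 and 1.69. Their H3K18La changes ran from -0.06 (Mks1, a transition zone protein) to 1.51 (Sdccag8, a centrosomal protein), and the latter was the call. For H3K27Ac they ran from 0.54 (Trim32, a ubiquitin ligase) to 2.01 (Ift172). Of 17 intraflagellar transport promoters, 5 passed for H3K18La and 13 for H3K27Ac, with medians of 0.93 and 1.57. Their range was -0.37 (Ift81) to 2.04 (Kif3a, a motor subunit) for H3K18La and 1.08 (Dync2h1, the retrograde motor) to 2.01 (Ift81) for H3K27Ac. The medians of the lists thus lay between 1.57 and 2.09 for H3K27Ac and between 0.36 and 2.34 for H3K18La, and the differences between lists were not tested.

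**Figure D4:**
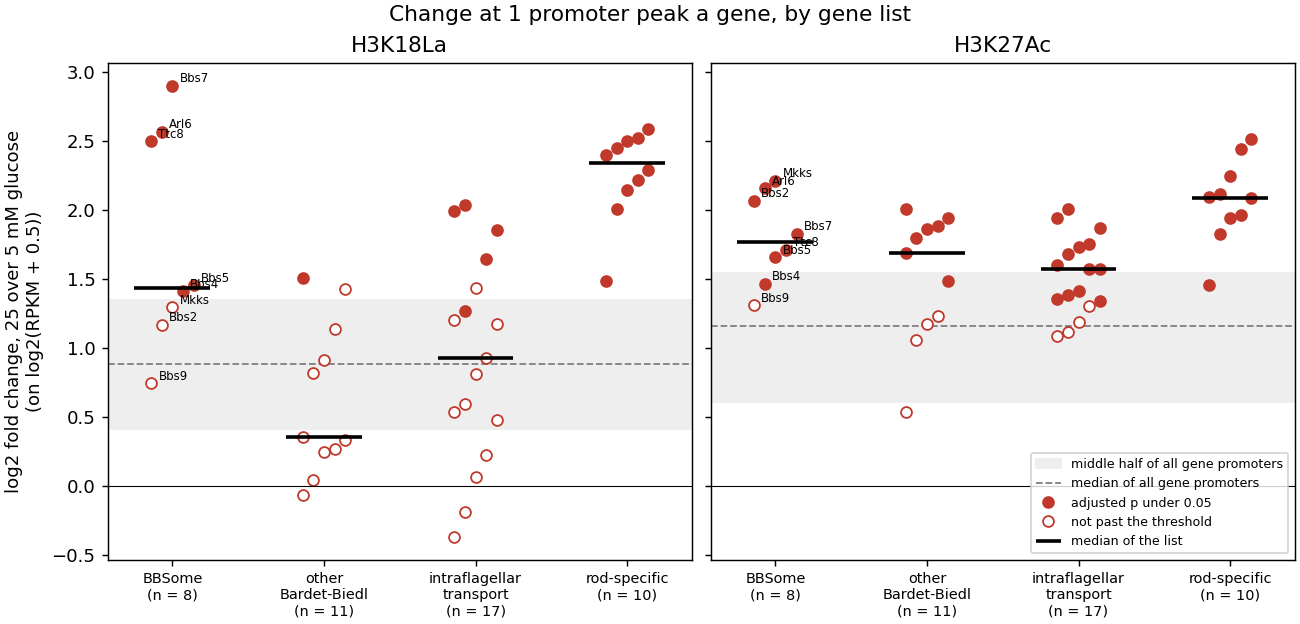
Log2 fold change (25 over 5 mM glucose, on log2(RPKM + 0.5)) of 1 promoter peak per gene for 4 gene lists. Filled points passed an adjusted p of 0.05, black bars are list medians, and grey marks the median and interquartile range of all gene promoters. For H3K18La the BBSome median (1.43) lies between the intraflagellar transport (0.93) and rod-specific (2.34) medians. These lists also differ in signal level and peak width.

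A share of the summed promoter RPKM of the same library does not depend on how libraries are scaled, but it still includes background reads. Reads in peaks rose with glucose in both marks, and the part of background in these shares was not tested. The 8 BBSome promoters took 0.0682% ± 0.00773 (SD, n = 3) of the H3K18La promoter signal at 5 mM and 0.107% ± 0.0108 (SD, n = 3) at 25 mM, without overlap. The rod-specific genes went from 0.118% ± 0.0175 to 0.257% ± 0.0540, also without overlap. The intraflagellar transport genes had 0.111% ± 0.0222 and 0.112% ± 0.0125, and the other Bardet-Biedl genes 0.0678% ± 0.0145 and 0.0525% ± 0.0122, with overlapping libraries in each case. For H3K27Ac (n = 2) all 4 lists had larger shares at 25 mM and none overlapped, from 0.122% ± 0.0109 to 0.158% ± 0.00574 for the BBSome and from 0.154% ± 0.0194 to 0.248% ± 0.0178 for the rod-specific genes. These shares are descriptions, without a test.

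**Figure D5:**
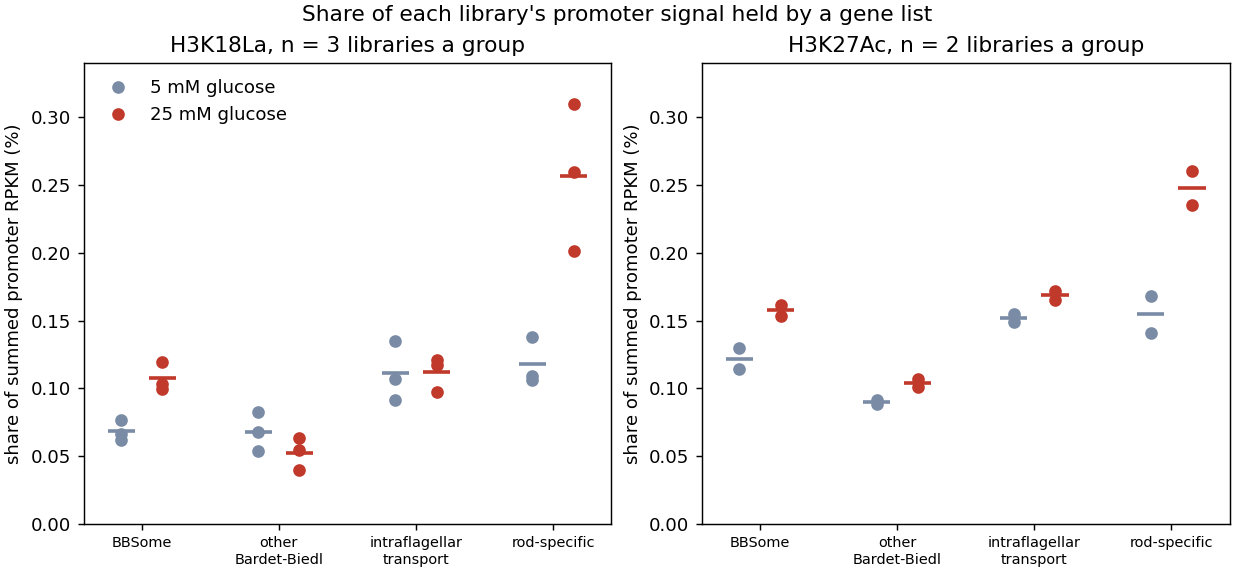
Share (%) of each library's summed promoter RPKM, over 14562 genes, held by 4 gene lists, with 1 point per library and bars at group means. For H3K18La the BBSome share lies between 0.0619% and 0.0768% at 5 mM and between 0.0992% and 0.120% at 25 mM.

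Marker lists of other cells were followed in the same way, as summed promoter RPKM without a test. For H3K18La the sums of the Muller glia markers were 3.64 to 6.63 at 5 mM and 8.92 to 12.5 at 25 mM, those of the cone markers 6.11 to 9.89 and 22.2 to 30.8, and those of the microglia marker 0.528 to 1.66 and 1.94 to 3.87, each without overlap. The bipolar markers overlapped, at 1.22 to 3.50 and 2.69 to 3.46. Against 20.1% of all genes, 3 of 6 cone markers passed for H3K18La and 0 of 5 Muller glia, 0 of 4 bipolar and 0 of 1 microglia markers did. For H3K27Ac none of the lists overlapped, with 13.0 to 16.9 and 30.5 to 38.5 for Muller glia, 7.11 to 9.05 and 16.4 to 17.1 for cones, 0.332 to 1.04 and 1.06 to 1.5 for microglia, and 2.52 to 3.84 and 13.2 to 23.6 for bipolar cells. Against 42.5% of all genes, 2 of 5 Muller glia, 1 of 6 cone, 2 of 4 bipolar and 0 of 1 microglia markers passed for H3K27Ac. Sums of the 2 promoters of markers from tissues outside the retina were also higher at 25 mM. They were 2.29 to 4.60 and 5.15 to 9.62 for H3K18La and 4.28 to 8.81 and 16.8 to 21.8 for H3K27Ac. Ckm, a muscle creatine kinase, made up most of both sums at 25 mM. It passed in both marks (log2 fold changes of 1.58 and 1.58, adjusted p = 0.0200 and 0.0262). The other promoter, Myog, passed in neither (0.38 and 0.77, adjusted p = 0.601 and 0.318), and its libraries overlapped in both marks. The pigment epithelium had been removed at dissection. Sums of its 2 markers with a promoter peak were 2.17 to 10.6 and 11.8 to 19.0 for H3K18La and 3.71 to 5.81 and 8.40 to 12.1 for H3K27Ac, and 5 of its 6 markers had a peak of some kind, all but Lrat. Of the 2 promoters, 1 passed for H3K18La (Rgr, log2 fold change 1.75, adjusted p = 0.0255) and 0 for H3K27Ac. Rgr made up most of the H3K18La sum, and its libraries overlapped, with 10.6 RPKM in the highest at 5 mM and 9.78 RPKM in the lowest at 25 mM. The part of cell composition in the BBSome values was not tested.

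The promoters most like the BBSome profile were those of Ivns1abp, Atad2b and Txndc15, whose log2(RPKM + 0.5) over the 10 libraries had Pearson correlations of 0.998, 0.998 and 0.998 with the mean of the 8 members. This is a description of libraries that share their mark and depth, and 6374 promoters exceeded 0.9. The members themselves correlated with that mean, which includes them, at 0.915 (Bbs7) to 0.974 (Bbs4).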

How the data were processed

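CUT&Tag libraries of H3K18La (3 per glucose level) and H3K27Ac (2 per glucose level) were grouped by their labels, which name a single batch. The authors aligned reads to GRCm38, called peaks with MACS and annotated them with ChIPseeker 1.34.1 (promoters from -1000 to 500 bp of a start site). In merged consensus peaks, whose number equals that of the paper's developmental H3K18La series, they counted reads with csaw and deposited RPKM values. Their own H3K18La comparison (log2 fold changes, p-values and group means, for which the submitters' notes name edgeR 3.40.2) was not used. The label protocol of the explants names an H3K9me3 antibody, whereas titles and methods name H3K27Ac, which was followed.

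In every library the RPKM of a peak came to a whole number of reads (100% of values, tolerance 0.01 read), which gave reads per peak and library totals, the latter on the assumption that no normalization factor is part of the RPKM. A value of 0 reads allows up to 3. Each mark was fitted alone with limma 3.58.1 in R 4.3.3 (lmFit, eBayes with trend and robust options) on log2(RPKM + 0.5), two-sided, with Benjamini-Hochberg adjustment over 108253 peaks at 0.05, and an interaction was fitted over 10 libraries. This scale understates changes of weak peaks. The robust option was chosen because an earlier fit without it had recovered none of the changes put into simulated H3K27Ac data. The fit was tested on simulated data in which a small set of peaks changed and reads in peaks did not shift. That test does not cover a rise over most peaks, as seen here. Exact permutation of labels could not go below p = 0.1 with 3 against 3 libraries or 0.333 with 2 against 2, and was not used.

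The members and lists were chosen with earlier results of these data known. The named peaks were, for each member, its strongest promoter peak by mean RPKM over 10 libraries, other promoter peaks and the strongest other peak, and for other lists the genes with the highest and lowest change, and the 3 promoters most correlated with the members. A gene that this rule names is not reported here. Lists other than the members held 14 other Bardet-Biedl genes and partners, 21 of intraflagellar transport and 10 rod-specific genes, and markers of 6 other kinds of cell or tissue. Starts of neighbouring genes came from GENCODE M21 and promoter sequences from RefSeq, both on the GRCm38 build. Middle windows of peaks were searched after the data were seen. Python 3.11.15 with pandas 2.3.3 and pysam 0.24.0 read the files. Alternatives were other offsets, filters, moderation, scalings, depths, GC correction, a replicate block and leaving out each library.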

Additional observations from a re-analysis of the deposited data

How the results depend on the processing

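The direction of the 8 BBSome promoters was positive under every alternative for H3K27Ac and under all but scaling to reads in peaks for H3K18La. Counts of called peaks depended on the processing, and where no value below names a cause, the cause was not tested.

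For H3K18La, 22474 peaks were called in all and 13 of the members. An adjusted p of 0.01 left 11775 and 6, centring on the median peak 5434 and 5, and scaling to reads in peaks 0 and 0. Centring on the weakest decile left 11015 and 7, and thinning to equal depth 10287 and 4, while voom called 27956 and 20. Without each library in turn, 12138 to 21212 peaks and 6 to 12 of the members were called. For H3K27Ac, against 17988 and 13, an adjusted p of 0.01 left 86 and 0, the fit over all 10 libraries 4473 and 5, and centring on the median 5533 and 8. An offset of 0.1, no robust option, scaling to reads in peaks, thinning, and each library left out in turn gave 0 and 0, the last with 1 library in a group, assumed to vary like the others, and a smallest adjusted p of 0.114 over all peaks.

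Samples with the same replicate number did not deviate together (correlations of 0.0101 to 0.0238 for H3K18La and -0.00401 for H3K27Ac), so the numbers were not taken as pairs. With a replicate block, H3K18La calls were 18471 and 10, and H3K27Ac calls fell to 8518 and 5, or 8156 and 5 with the GC trend also removed. The interaction called 0 peaks under each alternative run.

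The median log2 fold change of the BBSome promoters was 0.80 for H3K18La after centring and 0.30 after scaling to reads in peaks, and 0.53 for H3K27Ac after the latter. That of the rod-specific promoters was 1.71 and 1.04 for H3K18La and 1.65 and 0.85 for H3K27Ac. Over all 17144 peaks annotated as promoters it was 0.25 and -0.060 for H3K18La and 0.69 and 0.017 for H3K27Ac. Centring turned negative the H3K18La changes at the Bbs1 peak (-0.080), the Bbs2 exon peak (-0.60) and the Bbs4 exon peak (-0.56), and the H3K27Ac changes at the Bbs9 second promoter (-0.26) and intron 18 peak (-0.0021). Scaling to reads in peaks turned negative H3K18La at the Bbs1 peak (-0.64), the Bbs2 exon peak (-1.10) and promoter (-0.035), the Bbs4 exon peak (-0.23), and the Bbs9 promoter (-0.40) and second promoter (-0.00048), and H3K27Ac at the Bbs1 peak (-0.20), the Bbs7 intron peak (-0.058), and the Bbs9 second promoter (-1.03) and intron 18 peak (-0.75). Thinning did so for H3K18La at the Bbs7 intron peak (-0.071) and the Bbs4 exon peak (-0.93), and voom at the latter (-0.23). Without single libraries, H3K18La ranged from -0.17 to 0.37 at the Bbs2 exon peak and from -0.45 to 0.52 at the Bbs4 exon peak, and H3K27Ac from -0.26 to 0.61 at the Bbs9 second promoter and from -0.19 to 1.06 at its intron 18 peak.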
